A study of Rattus norvegicus with 20 samples.

Results

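The miR-10, miR-99, miR-100 and miR-125 miRNAs are described here as 9 mature rat sequences: rno-miR-10a-5p, rno-miR-10b-5p, rno-miR-99a-5p, rno-miR-99b-5p, rno-miR-99b-3p, rno-miR-100-5p, rno-miR-125a-5p, rno-miR-125a-3p and rno-miR-125b-5p. The prefix is left out below. They were taken by name from the 677 rat miRNAs on the array, and all 9 were among the 217 that were tested. They were selected on their measured difference in array signal between the cell types, because related sequences lay in opposite directions between pachytene spermatocytes, the cells of meiotic prophase, and round spermatids, the haploid cells after meiosis. Differences between the cell types are therefore given as a description, without a test. The cells came from male Sprague-Dawley rats. For 4 weeks the rats were gavaged on 6 days of each week, either with cyclophosphamide, an alkylating drug, at 6 mg/kg or with saline. Each treatment was measured in both cell types, which gave 4 groups of 5 arrays. Cells were separated by unit gravity sedimentation (STA-PUT) and each preparation is a bulk sample, so fewer cells of a type and less RNA per cell cannot be told apart. Neither the age of the rats nor the purity of the preparations is stated in the labels. If the rat numbers in the labels mark separate animals, the p-values rest on the spread between animals.

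The miR-10 genes lie in the Hox gene clusters, and miR-10 is known as a regulator of Hox transcripts. The miR-99 and miR-100 sequences are related to miR-10 and are best known as repressors of Mtor and of the insulin-like growth factor receptor gene Igf1r. The miR-125 sequences are the mammalian relatives of the worm miRNA lin-4, and their known targets include Lin28a. In vertebrates a miR-99 or miR-100 gene, a let-7 gene and a miR-125 gene usually lie together in a cluster. Target choice by a miRNA depends mainly on its seed, bases 2 to 8 from the 5′ end.

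RefSeq (GRCr8) held a mature sequence for 8 of the 9 miRNAs, all but miR-99a-5p. The 5p sequences show how close the miR-10 and the miR-99/miR-100 groups are. They are printed 5′ to 3′ with the seed in capitals, each followed by the place of the mature sequence on the plus strand.
miR-10a-5p: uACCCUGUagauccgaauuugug, at chr10:81779730-81779752.
miR-10b-5p: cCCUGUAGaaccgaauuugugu, at chr3:80035886-80035907.
miR-99b-5p: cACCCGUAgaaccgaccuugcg, at chr1:67350070-67350091.
miR-100-5p: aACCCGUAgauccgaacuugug, at chr8:50798307-50798328.
miR-125a-5p: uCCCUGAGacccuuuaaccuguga, at chr1:67350689-67350712.
miR-125b-5p: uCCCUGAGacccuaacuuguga, at chr11:29732588-29732609.

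The miR-10b-5p entry starts 2 bases further into the hairpin than that of miR-10a-5p. With those upstream hairpin bases it reads uACCCUGUagaaccgaauuugugu, and its seed is then the same as that of miR-10a-5p. Aligned without gaps over 21 bases, miR-10a-5p and miR-10b-5p differ by 1 substitution, U12A, counted from the 5′ end of miR-10a-5p. The seeds of miR-99b-5p and miR-100-5p are the same, and the 2 sequences differ by 4 substitutions over 22 bases, C1A, A11U, C16A and C21U, counted from the 5′ end of miR-99b-5p. With miR-10a-5p moved by 1 base, miR-100-5p differs from it by 3 substitutions, C3A, U6C and U18C, counted from the 5′ end of miR-10a-5p. That pair shares the stretch guagauccgaa of 11 bases but not the seed. The first 13 bases of miR-125a-5p and miR-125b-5p are the same, and 1 other RefSeq mature miRNA, miR-351-5p, has their seed. The 3p arms have other seeds, as these sequences show.
miR-99b-3p: cAAGCUCGugucuguggguccg, at chr1:67350108-67350129.
miR-125a-3p: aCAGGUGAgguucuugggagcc, at chr1:67350727-67350748.

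By the GRCr8 annotation, Mir10a lies next to Hoxb4 and overlaps no other gene, and Mir10b lies within Hoxd4. Mir99b, Mirlet7e and Mir125a lie together within the protein-coding gene Spaca6. Mir99a, Mirlet7c1 and Mir125b2 lie within the long non-coding RNA gene LOC103693508. Mir100, Mirlet7a-2 and Mir125b1 lie within the overlapping genes Mir100hgl and Lnc215. The mature miR-125b-5p entry stands at Mir125b2, and the Mir125b1 hairpin holds the same sequence, so its array signal is not assigned to either cluster.

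Signals are given on a log2 scale after each array was scaled to its 75th percentile over 2176 spots that were well above background on every array, and values were held at a floor of 3.61. Between 181 and 281 miRNAs were detected per array, and replicate arrays correlated at r between 0.958 and 0.996. The arrays came from 3 slides, of which slide 3 held 4 spermatid arrays and no pachytene array. Slide 3 was scanned at 5 µm per pixel against 3 for the others, and on another day. Slide 3, its scan day and its pixel size therefore cannot be told apart. The germ cell markers miR-34b-5p, miR-34c-5p and miR-449a-5p were detected on all 5 arrays of every group. Of 9 markers of endothelial, muscle and mesenchymal cells, 6 or 7 were detected on all arrays of each group, so the preparations also held miRNAs known from other cell types. With 5 arrays per group, that number sets the precision. Of the 9 miRNAs, 8 were detected on all 20 arrays, and miR-99b-3p was detected on all 10 pachytene arrays but on only 2 of 5 arrays in each spermatid group. The spermatid arrays that missed it were all 4 of slide 3 and those of cyclophosphamide rats 14 and 25 on slides 1 and 2.

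**Figure D1:**
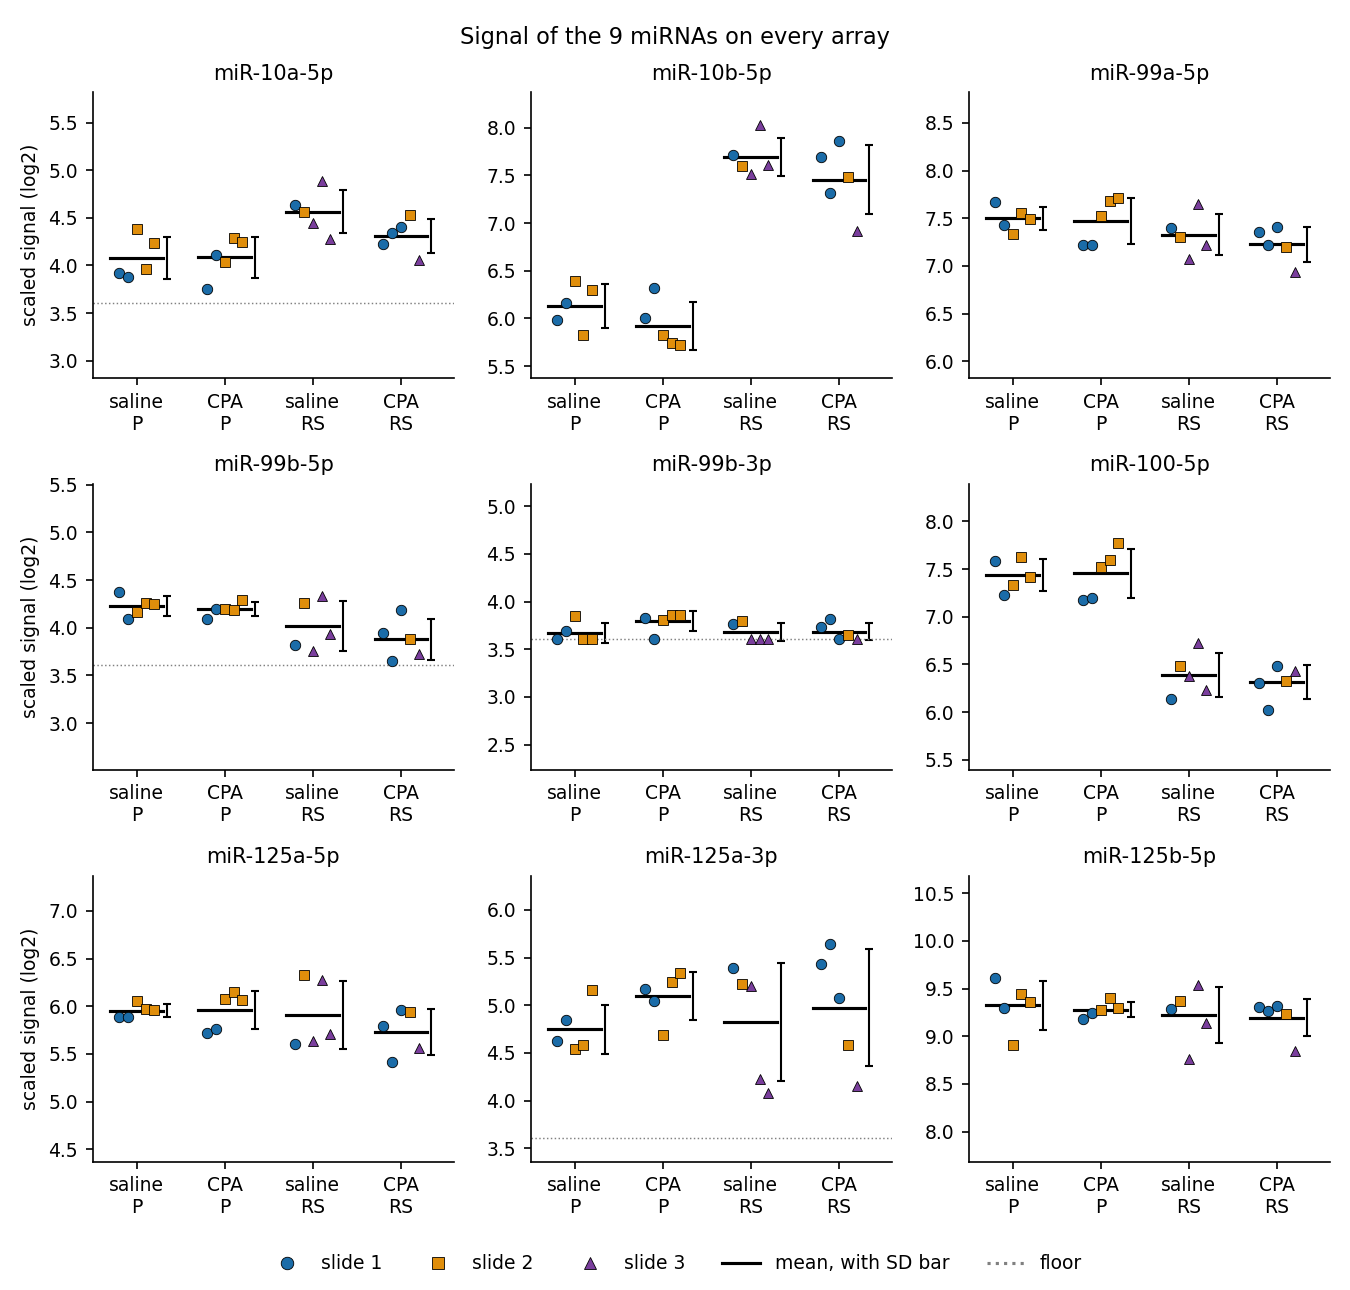
The 9 panels plot the scaled log2 signal of each miRNA on every array for saline and cyclophosphamide (CPA) pachytene spermatocytes (P) and round spermatids (RS), with the slide as colour and shape, the group mean as a line, the SD as a bar and the floor of 3.61 as a dotted line. Each panel spans the same range. The miR-10b-5p arrays of spermatids lie above all pachytene arrays and the miR-100-5p arrays of spermatids lie below them, while the groups overlap for the other 7 miRNAs.

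In the miR-10 pair, miR-10b-5p, the miRNA of the Hoxd4 locus, was higher in round spermatids than in pachytene spermatocytes in both treatments. In saline pachytene spermatocytes its log2 signal was 5.98 in rat 13, 6.16 in rat 16, 6.39 in rat 25, 5.83 in rat 26 and 6.30 in rat 28. In saline round spermatids it was 7.71 in rat 15, 7.60 in rat 16, 7.52 in rat 17, 8.03 in rat 25 and 7.61 in rat 28. The lowest of these spermatid arrays lay 1.13 above the highest pachytene array. In cyclophosphamide pachytene spermatocytes it was 6.00 in rat 7, 6.32 in rat 15, 5.83 in the earlier rat 16, 5.74 in the later rat 16 and 5.72 in rat 29. In cyclophosphamide round spermatids it was 7.69 in rat 14, 7.32 in rat 15, 7.86 in rat 16, 7.48 in rat 25 and 6.92 in rat 26. Here the gap between the cell types was 0.60, and rat 26, the only cyclophosphamide array on slide 3, was the lowest spermatid array.

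The group means of miR-10b-5p ran from 7.69 ± 0.20 (SD, n = 5) in saline spermatids through 7.46 ± 0.36 in cyclophosphamide spermatids and 6.13 ± 0.23 in saline pachytene spermatocytes to 5.92 ± 0.25 in cyclophosphamide pachytene spermatocytes. In this order, the 2 treatments of a cell type overlapped and the cell types did not. The difference between the cell types was 1.56 in saline rats, or 2.95-fold, and 1.53 in cyclophosphamide rats, or 2.89-fold. It stood at percentile 95.4 of the 217 tested miRNAs in each treatment. The second probe of miR-10b-5p gave 1.47 and 1.33. Of the tested miRNAs, 18.4% in saline and 23.5% in cyclophosphamide rats were higher in spermatids without overlap of the arrays.

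The other member of the pair, miR-10a-5p of the Hoxb locus, overlapped between the cell types in both treatments. Its mean was 4.56 ± 0.23 in saline spermatids, 4.31 ± 0.18 in cyclophosphamide spermatids, 4.09 ± 0.22 in cyclophosphamide pachytene spermatocytes and 4.08 ± 0.22 in saline pachytene spermatocytes. The difference between the cell types was 0.48 in saline and 0.22 in cyclophosphamide rats. Its signal was close to the floor, and its second probe, at the floor in both pachytene groups, differed by 0.12 and 0.06. Within an array, the log2 difference of miR-10b-5p over miR-10a-5p was 1.08 larger in saline spermatids and 1.31 larger in cyclophosphamide spermatids than in pachytene spermatocytes, with no overlap of arrays.

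In the miR-99/miR-100 group, miR-100-5p was lower in round spermatids. In saline pachytene spermatocytes its log2 signal was 7.59 in rat 13, 7.23 in rat 16, 7.33 in rat 25, 7.63 in rat 26 and 7.42 in rat 28. In saline round spermatids it was 6.14 in rat 15, 6.48 in rat 16, 6.38 in rat 17, 6.73 in rat 25 and 6.23 in rat 28. The highest spermatid array lay 0.50 below the lowest pachytene array. In cyclophosphamide pachytene spermatocytes it was 7.18 in rat 7, 7.20 in rat 15, 7.52 in the earlier rat 16, 7.60 in the later rat 16 and 7.77 in rat 29. In cyclophosphamide round spermatids it was 6.31 in rat 14, 6.02 in rat 15, 6.48 in rat 16, 6.33 in rat 25 and 6.43 in rat 26. The gap was 0.70, and the 2 lowest of the cyclophosphamide pachytene arrays were those on slide 1.

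The means of miR-100-5p were 7.45 ± 0.26 in cyclophosphamide and 7.44 ± 0.17 in saline pachytene spermatocytes, followed by 6.39 ± 0.23 in saline and 6.31 ± 0.18 in cyclophosphamide spermatids. Neighbours in this order overlapped within a cell type and did not overlap between cell types. The difference was -1.04 in saline rats, a signal 2.06-fold lower in spermatids, and -1.14 in cyclophosphamide rats, 2.2-fold lower. It stood at percentile 6.45 of the tested miRNAs in each treatment, and the second probe gave -1.20 and -1.42. Of the tested miRNAs, 16.1% in saline and 18.9% in cyclophosphamide rats were lower in spermatids without overlap.

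The related sequences miR-99a-5p and miR-99b-5p overlapped between the cell types. The seed of miR-99b-5p is that of miR-100-5p, while no sequence of miR-99a-5p was at hand to compare. The mean of miR-99a-5p ran from 7.50 ± 0.13 in saline and 7.47 ± 0.24 in cyclophosphamide pachytene spermatocytes to 7.33 ± 0.22 in saline and 7.23 ± 0.19 in cyclophosphamide spermatids. Its difference was -0.17 and -0.24 by the brighter probe but 0.02 and -0.06 by the second probe, so the probes disagreed in sign in saline rats. The mean of miR-99b-5p ran from 4.23 ± 0.10 and 4.19 ± 0.07 in saline and cyclophosphamide pachytene spermatocytes to 4.02 ± 0.26 and 3.88 ± 0.21 in spermatids. Its difference was -0.21 in saline and -0.32 in cyclophosphamide rats, and -0.06 and -0.09 by the second probe, which was near the floor.

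For miR-99b-3p, the other arm of the same hairpin, group means lay between 3.67 and 3.79, at or near the floor. It had 4 probes, and none differed by more than 0.11 between the cell types. Within an array, the log2 difference of miR-100-5p over miR-99a-5p was 0.87 and 0.90 smaller in saline and cyclophosphamide spermatids (changes of -0.87 and -0.90). The same difference over miR-99b-5p changed by -0.84 and -0.82. Neither overlapped between the cell types. A difference within an array does not depend on the scaling factor of that array.

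**Figure D2:**
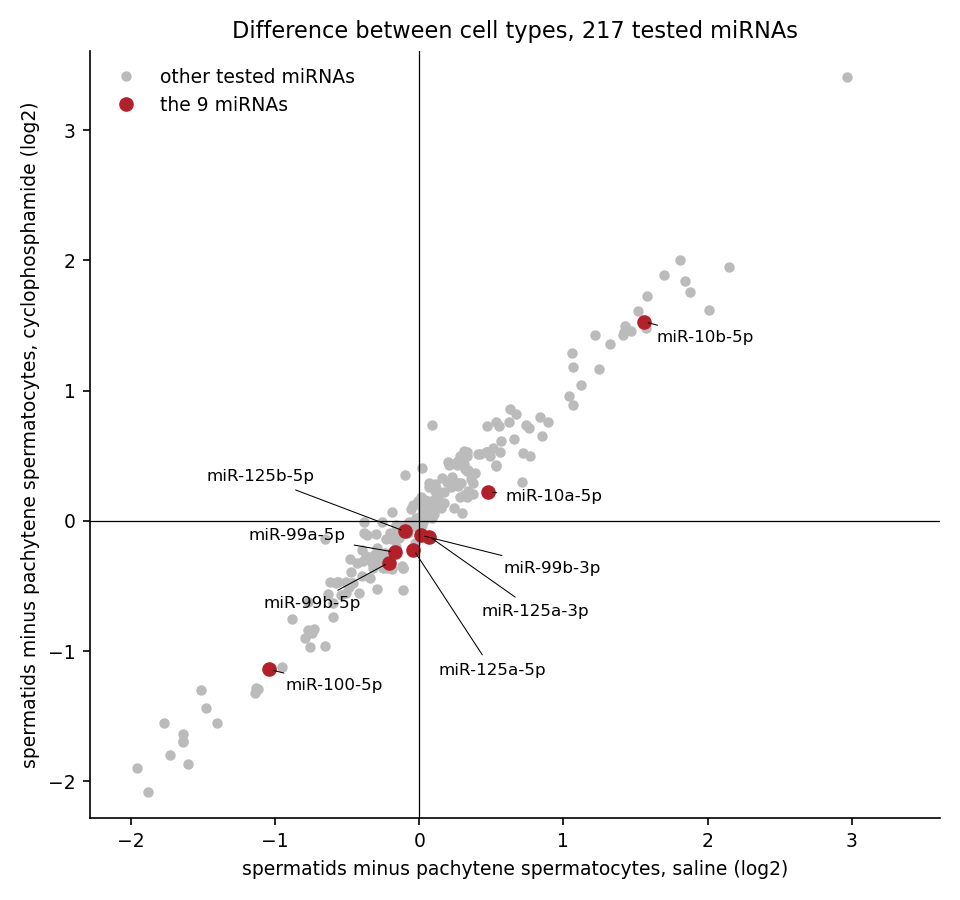
The plot sets the log2 difference between round spermatids and pachytene spermatocytes in saline rats (x axis) against that in cyclophosphamide rats (y axis) for the 217 tested miRNAs, with the 9 miRNAs in red. It shows miR-10b-5p near the upper end at 1.56 and 1.53 and miR-100-5p near the lower end at -1.04 and -1.14, with the other 7 between -0.32 and 0.48.

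The miR-125 sequences lay close to the same level in both cell types. The brightest of them, miR-125b-5p, had means of 9.32 ± 0.26 and 9.28 ± 0.08 in saline and cyclophosphamide pachytene spermatocytes and 9.22 ± 0.29 and 9.20 ± 0.20 in spermatids. Its difference between the cell types was -0.10 and -0.08, and -0.19 and -0.37 by its second probe. The means of miR-125a-5p were 5.95 ± 0.07 and 5.96 ± 0.20 in pachytene spermatocytes and 5.91 ± 0.36 and 5.73 ± 0.24 in spermatids. Its brighter probe differed by -0.04 and -0.22 and its second by -0.35 and -0.48. Both probes gave the same sign, and all 4 groups overlapped on the brighter probe.

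The other arm, miR-125a-3p, had the widest spread of the 9 in spermatids. Its means were 4.75 ± 0.26 and 5.10 ± 0.25 in pachytene spermatocytes and 4.82 ± 0.62 and 4.98 ± 0.61 in spermatids, with single spermatid arrays from 4.08 to 5.64. Its 4 probes gave differences from -0.27 to 0.07 in saline rats and from -0.43 to -0.12 in cyclophosphamide rats. For the cluster partners, the log2 difference of miR-125b-5p over miR-100-5p within an array was 0.94 and 1.06 larger in spermatids, without overlap. Over its other partner miR-99a-5p it changed by 0.07 and 0.16, and the arrays overlapped. The difference of miR-125a-5p over its neighbour miR-99b-5p changed by 0.16 and 0.09, and these arrays overlapped too.

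**Figure D3:**
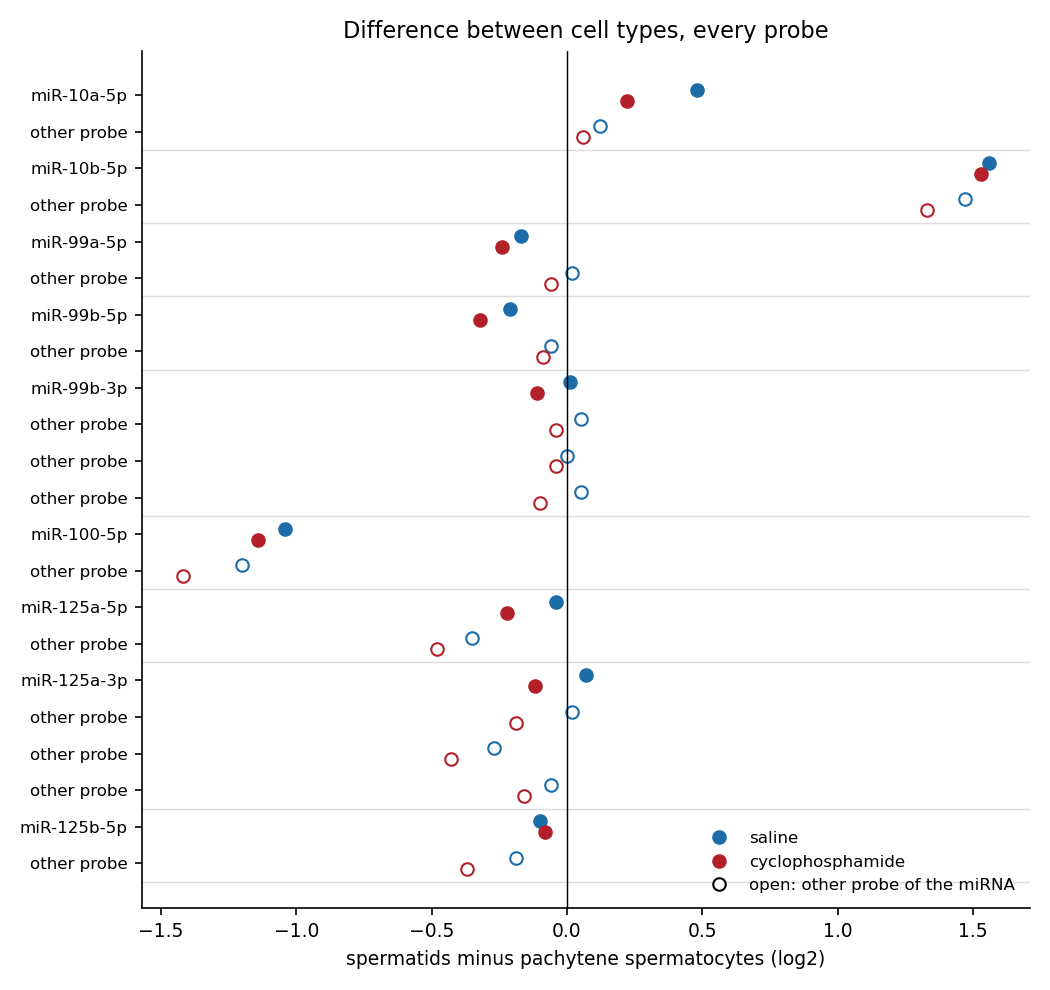
Each row is 1 probe, with the log2 difference between round spermatids and pachytene spermatocytes in saline (blue) and cyclophosphamide rats (red); filled points are the brightest probe of a miRNA and open points its other probes. Both probes of miR-10b-5p lie between 1.33 and 1.56 and both of miR-100-5p between -1.42 and -1.04, whereas every probe of the miR-125 arms lies between -0.48 and 0.07.

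The arrays did not overlap between the cell types in both treatments for 2 of the 9 miRNAs, miR-10b-5p and miR-100-5p, while this held for 29.5% of the tested miRNAs. Nothing is read from this count, since the cell types were used to choose the miRNAs. The median difference of the 9 was -0.04 in saline and -0.12 in cyclophosphamide rats, against 0.02 and 0.06 over all tested. Scaling to the labelling spike-ins moved the median of all tested miRNAs to -1.01 in saline and -0.49 in cyclophosphamide rats. On that scale the arrays of miR-10b-5p, with differences of 0.34 and 0.82, did not part the cell types in both treatments. Those of miR-100-5p, at -2.26 and -1.85, did, and so did those of miR-99b-5p, lower in spermatids. The spike-in signal itself lay between 1466 and 2054 on slide 3 and between 736 and 1445 on the other slides. Slide 3 held saline spermatid rats 17, 25 and 28 and cyclophosphamide spermatid rat 26. The part of slide 3 in these shifts was not tested. With a model-based background correction (normexp), the differences were 1.13 and 0.81 for miR-10b-5p and -0.52 and -0.77 for miR-100-5p, and neither parted the cell types in both treatments. In the main setting, the log2 difference of miR-10b-5p over miR-100-5p within an array was 2.61 larger in saline and 2.67 larger in cyclophosphamide spermatids, without overlap. This lack of overlap follows from the opposite, non-overlapping differences of the 2 miRNAs in that setting, so nothing further is read from it. Within slide 1 the difference of miR-10b-5p was 1.64 and 1.46 and that of miR-100-5p was -1.27 and -0.92. For slide 2 they were 1.42 and 1.72, and -0.98 and -1.30. The saline values of slide 1 rest on spermatid rat 15 alone. Those of slide 2 rest on saline spermatid rat 16 and cyclophosphamide spermatid rat 25 alone.

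In the same preparations, the summed markers of endothelial, muscle and mesenchymal cells and of blood cells did not overlap between the cell types. The sums of the spermatogonial and Sertoli cell markers overlapped. The summed signal of the 9 endothelial, muscle and mesenchymal markers lay between 701 and 1499 in saline and between 563 and 1024 in cyclophosphamide pachytene spermatocytes, and between 2381 and 3661, and 1966 and 3801, in spermatids. Within that list miR-143-3p, a smooth muscle miRNA, differed by 1.81 in saline rats, miR-145-5p by 1.88 and miR-199a-3p by 1.84. There miR-199a-5p differed by 1.58 and miR-214-3p by 0.84, but the endothelial miR-126a-3p by -0.73 and miR-126a-5p by -0.38. The signs of these differences were the same in cyclophosphamide rats. This sum rests mostly on miR-143-3p, with a log2 mean of 11.31 in saline spermatids against 7.94 for miR-145-5p, the next brightest. The muscle miRNAs miR-1-3p and miR-133a-3p were at or near the floor. The 6 blood cell markers summed to between 75.4 and 119 in pachytene spermatocytes and between 139 and 225 in spermatids, while miR-144-3p was detected on no array and miR-451-5p on 1. The 5 spermatogonial markers summed to between 613 and 820 in pachytene spermatocytes and between 602 and 683 in spermatids, with miR-182 detected on no array. The sum rests mostly on miR-21-5p, which differed by -0.20 in saline and -0.09 in cyclophosphamide rats. Other markers of that list lay in opposite directions: miR-221-3p differed by -1.64 and -1.70 and miR-222-3p by -1.40 and -1.55, but miR-146a-5p by 2.01 and 1.62. The 4 Sertoli cell markers summed to between 362 and 481 in pachytene spermatocytes and between 248 and 588 in spermatids, mostly from miR-212-3p. In that list miR-202-3p differed by -1.77 and -1.55, and miR-132-3p by 0.33 and 0.53. The part of these cells in the values of miR-10b-5p and miR-100-5p was not tested.

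By the root mean square difference of profiles over the 20 arrays, each centred on its own mean, the profile of miR-10b-5p was closest to miR-195-5p (0.10 on the log2 scale), miR-24-3p (0.14) and miR-23a-3p (0.14). These 3 differed between the cell types by 1.52, 1.41 and 1.47 in saline rats. The profile of miR-100-5p was closest to miR-652-3p (0.15), miR-107-3p (0.18) and miR-181a-5p (0.20), which differed by -1.14, -0.79 and -0.74. The let-7 miRNAs let-7c-5p and let-7d-5p were among the 3 closest to miR-99a-5p, miR-99b-5p and miR-125a-5p, and let-7e-5p was the closest to miR-125b-5p, at 0.18. The closest to miR-10a-5p was miR-26b-5p, at 0.18. For miR-125a-3p it was miR-211-3p, at 0.24, the largest of these distances. For miR-99b-3p it was miR-465-5p, at 0.10, and both of these were near the floor.

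Of 11 miRNAs on the array that share a hairpin or a let-7 cluster with the 9, 6 were detected on no array and 4 were tested. Among the 6 other arms, miR-125b-2-3p was the only one tested, and its mean was 3.61 in both pachytene groups, 3.64 ± 0.06 in saline spermatids and 3.76 ± 0.16 in cyclophosphamide spermatids. Of the let-7 partners, let-7a-5p had means of 9.97 ± 0.08 and 9.93 ± 0.10 in pachytene spermatocytes and 10.04 ± 0.12 and 10.04 ± 0.10 in spermatids. The partner of miR-99a, let-7c-5p, differed by -0.32 and -0.36 between the cell types, and let-7e-5p, the partner of miR-99b and miR-125a, had means between 5.89 and 5.97 in the 4 groups. The arrays of all 3 overlapped. Mature let-7a-5p and let-7c-5p were not shown to come from these clusters only, so their array signals are not assigned to a cluster. The other Hox cluster miRNAs, the miR-196 arms and miR-615, gave no tested miRNA, and 6 of these 7 were detected on no array.

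Cyclophosphamide against saline was not used in choosing the miRNAs and was tested with limma. None of the 9 passed in pachytene spermatocytes, in round spermatids or in the difference between the 2 effects, and 0% of the tested miRNAs were called in each of these comparisons. At an unadjusted p under 0.05, limma counted 1, 5 and 1 of the 217, and none of the 9. Every pair of drug and saline groups overlapped for each of the 9. The share over all tested miRNAs was not counted, so nothing is read from this overlap.

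In the Hox-linked miR-10 pair, the largest of these differences was in round spermatids. In miR-10a-5p, saline spermatids measured 4.63, 4.56, 4.45, 4.89 and 4.28 in rats 15, 16, 17, 25 and 28, and cyclophosphamide spermatids 4.23, 4.34, 4.40, 4.53 and 4.06 in rats 14, 15, 16, 25 and 26. All 5 drug arrays lay below the saline mean, though the groups overlapped. The difference was -0.25 (SE 0.13, 95% interval -0.52 to 0.02, limma adjusted p = 0.848). For miR-10b-5p it was -0.24 (SE 0.16, -0.58 to 0.10, limma adjusted p = 0.848) in spermatids and -0.21 (SE 0.16, -0.55 to 0.13, limma adjusted p = 1) in pachytene spermatocytes. The drug arrays below the saline mean of miR-10b-5p numbered 3 of 5 and 4 of 5. In pachytene spermatocytes miR-10a-5p differed by 0.01 (SE 0.13).

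Among the miR-99 and miR-100 sequences, the differences in pachytene spermatocytes were -0.03 for miR-99a-5p, -0.03 for miR-99b-5p, 0.01 for miR-100-5p and 0.12 for miR-99b-3p. In spermatids they were -0.10, -0.15, -0.08 and 0.01 in the same order. The interval for miR-100-5p ran from -0.26 to 0.29 in pachytene spermatocytes and from -0.36 to 0.20 in spermatids. The miR-125 arms also missed the threshold: in pachytene spermatocytes miR-125a-3p differed by 0.35 (SE 0.28, -0.23 to 0.93), with 4 of 5 drug arrays above the saline mean. Its 4 probes gave 0.26 to 0.35 there and 0.10 to 0.17 in spermatids. Between slide 3 and the others miR-125a-3p differed by -0.89 in spermatids (limma adjusted p = 0.123). Slide 3 held saline rats 17, 25 and 28 but only cyclophosphamide rat 26, so treatment and slide were not balanced in spermatids. The sign of the spermatid drug difference of miR-125a-3p changed in 9 of 41 alternatives. In spermatids miR-125a-5p differed by -0.18 (SE 0.15) and miR-125b-5p by -0.03 (SE 0.14).

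In round spermatids 7 of the 9 differences were below 0, with a median of -0.10 against 0.04 over all tested. In pachytene spermatocytes 4 of 9 were below 0, with a median of 0.00 against 0.01. The 95% intervals stayed within a 2-fold change in either direction for all 9 miRNAs in each cell type. Across cell types the drug effects differed by -0.26 (SE 0.18) for miR-10a-5p and by less for the others, and only the interval of miR-125a-3p, from -1.02 to 0.63, reached past a 2-fold change. Within slide 2, which held 1 spermatid array of each treatment, miR-125a-5p and miR-99b-5p differed by -0.39 each. No p is given there, since a fit can take its spread only from the pachytene arrays of that slide. Within slide 1 both differed by 0.11 and within slide 3 by -0.31 and -0.29. On slide 1 the saline side was spermatid rat 15 alone, and on slide 3 the cyclophosphamide side was spermatid rat 26 alone.

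**Figure D4:**
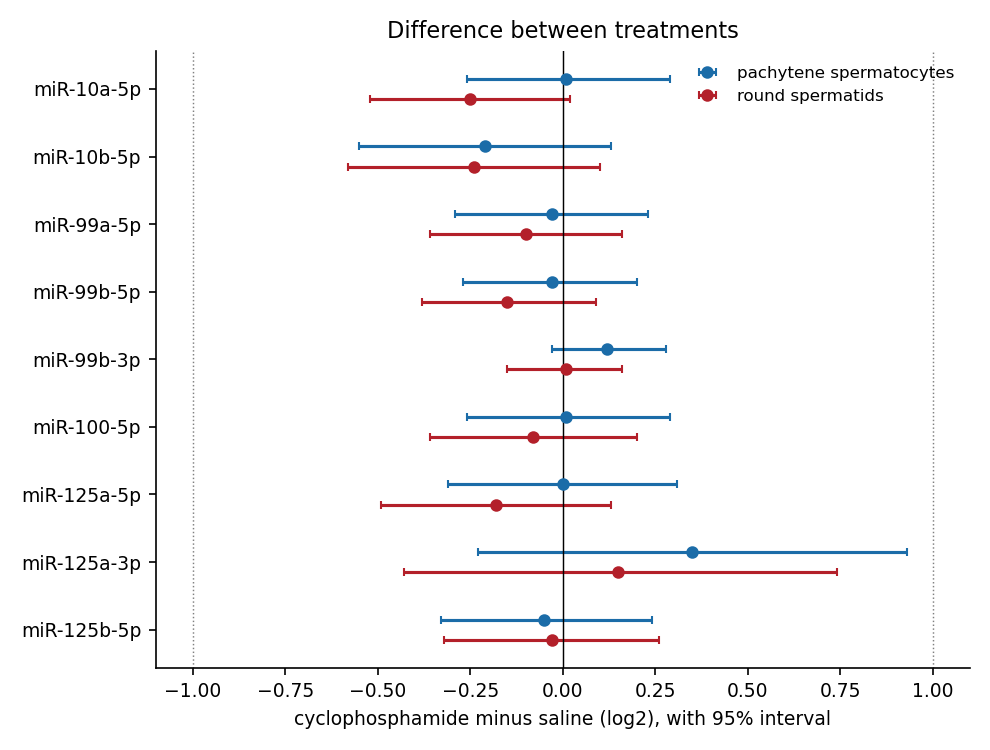
Points give the log2 difference of cyclophosphamide and saline arrays (n = 5 each) with its 95% interval from limma, in pachytene spermatocytes (blue) and round spermatids (red), and dotted lines mark a 2-fold change. Every interval crosses 0 and none reaches the dotted lines; the widest are those of miR-125a-3p, from -0.23 to 0.93 and from -0.43 to 0.74.

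Slide differences, which were not used in choosing the miRNAs either, were tested within each cell type. With treatment in the model, 24.4% of the tested miRNAs were called between slide 2 and slide 1 within pachytene spermatocytes, and 10.1% were called higher on slide 2. Of the 9, miR-125a-5p was called. It measured 5.72 and 5.76 in the cyclophosphamide arrays and 5.89 in both saline arrays of slide 1, and between 5.96 and 6.15 in the 6 arrays of slide 2. The slides did not overlap, and the difference was 0.23 (SE 0.05, limma adjusted p = 0.0139). Without cyclophosphamide rat 15 the difference was 0.21 (limma adjusted p = 0.0512), about as large, and just missed the threshold. The 75th percentile of the pachytene arrays before scaling lay between 253 and 314 on slide 1 and between 260 and 571 on slide 2, and its part in the difference was not tested. The slides each held both treatments, and with slide as a block the drug difference of miR-125a-5p in pachytene spermatocytes was 0.00, as without it.

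In pachytene spermatocytes, miR-10a-5p was 0.28 higher on slide 2 (SE 0.10, limma adjusted p = 0.0867) and miR-100-5p 0.24 higher (SE 0.11, limma adjusted p = 0.176), and neither passed. In round spermatids 8.29% of the tested miRNAs were called between slide 3 and the others, and none of the 9. The largest difference among the 9 was that of miR-125a-3p, which measured 5.20, 4.23 and 4.08 in the saline arrays and 4.15 in the cyclophosphamide array of slide 3, against 4.58 to 5.64 on the other slides. The difference was -0.89 (SE 0.30, 95% interval -1.57 to -0.22), with an unadjusted limma p of 0.0158 and an adjusted p of 0.123. Slide 3 held no pachytene array, so this comparison covers spermatids only.

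Some arrays were the highest or the lowest of their group for several of the 9 at once. Saline spermatid rat 25 was the highest of its group for 6 of the 9, and cyclophosphamide spermatid rat 16 was the highest for 6. Cyclophosphamide pachytene rat 7 was the lowest for 6 and cyclophosphamide spermatid rat 26 for 5. Such ranks were not counted over all tested miRNAs, so nothing is read from these counts. Leaving out rat 26 changed the difference of miR-10b-5p between the cell types in cyclophosphamide rats from 1.53 to 1.66. The miRNAs concerned differed from array to array: rat 26 was lowest for miR-10a-5p, miR-10b-5p, miR-99a-5p, miR-125a-3p and miR-125b-5p, whereas miR-100-5p was 6.43 there, the second highest of the group.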

How the data were processed

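Total RNA (100 ng) was labelled with Cy3 and hybridised to 20 one-colour Agilent miRNA arrays, 5 per group. The deposited scanner files hold background-subtracted spot intensity values on a linear scale, which per the file headers and the submitters' processing notes came from Agilent Feature Extraction 11.5.1.1. The deposited value table holds log2 values made by the authors, centred on a median of 0 per miRNA, with array medians between -0.12 and 0.40; its scaling is not given in the sources used here, and it served as an alternative for the 4 of the 9 miRNAs it matched. The file of cyclophosphamide spermatid rat 14 holds signals rounded to 3 significant digits.

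Signals were scaled to each array's 75th percentile over 2176 spots, held at a floor of 12.17 and taken to log2. Control spots and 379 to 635 outlier spots per array were left out, and saturation was marked at 0 spots. Values were averaged per probe, and a miRNA was represented by its brightest probe. Detection on every array of 1 group or more was required for testing (217 of 677). The test was limma (version 3.58.1, R 4.3.3), with 1 mean per group, 16 residual degrees of freedom and Benjamini-Hochberg adjustment over the 217 at a threshold of 0.05. Intervals are 95% limma intervals. The fit was tested on simulated data. Slide differences were fitted within the 10 arrays of a cell type with treatment in the model. The 9 miRNAs, the partner and marker lists and the tests were chosen with earlier results of these data known. All 9 are named in every group, each array value is given where the arrays of the cell types did not overlap in both treatments, and the 3 closest profiles were taken for each. Alternatives covered scaling, background, floor, filter, probes, slides, scan day, rat numbers and each array left out. Sequences come from RefSeq (GRCr8). Figures were drawn with matplotlib 3.10.9.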

Additional observations from a re-analysis of the deposited data

Results flagged for a closer look

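Among the 36 sets of 5 arrays (9 miRNAs in 4 groups), 2 held an array far from the others, where chance gives about 1 in 20. In cyclophosphamide round spermatids, miR-125b-5p measured 8.85 in rat 26 against 9.23 to 9.32 in the other 4 rats. In cyclophosphamide pachytene spermatocytes, miR-99b-3p was at the floor, 3.61, in rat 15 against 3.81 to 3.86 in the other 4.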

How the results depend on the processing

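For the drug comparisons none of the 9 miRNAs was called under any alternative run except within slide 2, where 2 were called in round spermatids (27 of all 217) and 1 in the difference of the effects (20 of 217). With 1 spermatid array per treatment there, the spread came from pachytene arrays only, so those calls do not measure the spread between spermatid arrays. Left-out arrays gave 0 throughout for the 3 drug comparisons, as did the rat number as a replicate block, fixed or random. The fixed block used the number alone, across treatments, and the random one the number within a treatment. Over all alternatives the lowest limma adjusted p of the 9 was 0.267 in pachytene spermatocytes. In spermatids and for the difference the lowest was that within slide 2, and it is not given for the reason above. The sign of single drug differences changed in 51 of 354 alternatives in pachytene spermatocytes and in 43 of 363 in spermatids. Same-numbered arrays of the 2 cell types deviated together at r = 0.126 in cyclophosphamide rat 15 and at 0.0716, 0.184 and -0.296 in saline rats 16, 25 and 28, against -0.33 to 0.349 for 44 pairs of different numbers. The earlier and the later cyclophosphamide pachytene rat 16 cannot both match spermatid rat 16 and gave 0.215 and -0.126, so the numbers were not shown to pair the samples. With the rat number as a fixed replicate block, the miR-10b-5p difference between cell types was 1.46 in saline and 1.08 in cyclophosphamide rats. That of miR-100-5p was -0.88 and -1.19. This block kept the earlier and the later pachytene rat 16 apart from spermatid rat 16. It joined saline and cyclophosphamide rats of equal number, which are different animals, so it does not compare the cell types within a rat.

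For the slides within pachytene spermatocytes, the 1 called (53 of 217 in all) became 0 without scaling (0 of 217), under quantile normalization (57 of 217), under normexp (0 of 217), with no filter on dim miRNAs (32 of 677) and without cyclophosphamide rat 15 (41 of 217). The difference of miR-125a-5p, 0.23 in the main setting, was then 0.63, 0.19, -0.31, 0.23 and 0.21, so it reversed under normexp (limma adjusted p = 0.236) and was 0.19 or more in the others. With the total gene signal it was 0.20 and missed the threshold (limma adjusted p = 0.0671), and miR-99b-3p was called in its place. The count became 2 with the mean over all probes (55 of 217) and 6 with the labelling spike-ins (89 of 217), and ranged from 0 to 2 with single arrays left out. For the slides within round spermatids, the 0 called became 1 with the lower floor (27 of 217) and with only miRNAs detected on all arrays (18 of 158), and ranged from 0 to 1 with single arrays left out (miR-125a-3p without saline rat 17, miR-125b-5p without saline rat 25). The cause was not tested. Of the 2 miRNAs whose arrays did not overlap between cell types, 1 remained without scaling (miR-100-5p) and 0 under normexp. With the labelling spike-ins 2 did not overlap, but miR-99b-5p stood in place of miR-10b-5p. Within slide 1, with fewer arrays, 3 did not overlap (miR-10a-5p added), and within slide 2, 4 (miR-10a-5p and miR-99a-5p added). Every array left out gave 2. Slide 2 held 1 spermatid array of each treatment, and no share over all tested miRNAs was counted in these settings. Nothing is read from these counts. The normexp setting, on median spot signals, was chosen after seeing the data, and the planned one, on mean spot signals, was not run.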
